A study of Sus scrofa with 6 samples.

Results

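The genes described here are 10 markers of the subclasses of cortical inhibitory interneurons. They are 3 calcium-binding protein genes (PVALB, CALB1 and CALB2), 5 neuropeptide precursor genes (SST, VIP, NPY, CCK and TAC1), the secreted glycoprotein gene RELN and the lysosome-associated membrane protein gene LAMP5. They were chosen by name, and all 10 were found among the 17201 genes counted. All 10 passed the filter on low counts, which left 14373 genes to test. Expression was measured by RNA sequencing in the prefrontal cortex of pigs (Sus scrofa) aged 3 months. The exposed animals, VPA 391, VPA 392 and VPA 393, had valproic acid (VPA) at 75 mg/kg during early gestation, and controls 401, 402 and 408 were labelled as having had no treatment. VPA is an anticonvulsant that also inhibits histone deacetylases, and the series is titled as an autism model in the pig. The labels used here give neither litter, sex nor the route of dosing.

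Cortical interneurons release GABA and fall into classes that differ in their targets on the pyramidal cell. Parvalbumin cells fire fast and contact the cell body and axon, somatostatin cells contact distal dendrites, and VIP cells mostly inhibit other interneurons. CCK basket cells and the neurogliaform cells marked by LAMP5 and RELN make up much of the rest. These roles are known mainly from rodents. Several of the markers are not confined to interneurons: in rodents CCK is also transcribed in many glutamatergic neurons, and TAC1 is a marker of one class of striatal projection neurons. The measurements are of whole tissue, in which fewer cells of a type and less RNA per cell cannot be told apart.

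Total counts per library ran from 16285517 to 17989032, so that 1 CPM, a read count scaled to the library total, stood for 16.3 to 18.0 reads. The 10 genes together held 987, 1091 and 1071 CPM in the VPA libraries, against 1081, 1104 and 1070 CPM in controls. The genes for GABA synthesis and vesicular packaging were well expressed in every library. Of these GAD1 had 352 to 367 CPM in VPA libraries and 323 to 337 CPM in controls, and the cortical glutamatergic marker SLC17A7 had 1012 to 1090 CPM in VPA libraries and 1124 to 1161 CPM in controls. VPA 393 stood apart in genes that mark the projection neurons of the striatum, a subcortical region: 14 of 15 measured genes of that list were highest in that library, as were 20.2% of all tested genes. Its summed level was 269 CPM in VPA 391, 278 CPM in VPA 392 and 649 CPM in VPA 393, against 228 to 252 CPM in controls. Counts of the Y-linked gene EIF1AY were 455 in VPA 391, 0 in VPA 392 and 548 in VPA 393, against 2 in control 401, 450 in control 402 and 478 in control 408, so that each group had 2 libraries with the gene and 1 with at most 2 reads of it.

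Per length of gene model, the somatostatin precursor had the highest level of the 10 genes and calbindin the lowest. The authors' FPKM values, which divide counts by gene length and library total, averaged 538 ± 40.5 for SST and 408 ± 25.9 for CCK (SD, n = 6 libraries). NPY followed with 119 ± 14.6 FPKM, LAMP5 with 82.7 ± 9.97, PVALB with 53.2 ± 3.86, CALB2 with 39.7 ± 7.01 and VIP with 26.1 ± 2.78. Each of the genes from SST down to CALB2 lay above the next in all 6 libraries, with ranges that did not overlap. The last 4 were less clearly ordered. VIP (22.4 to 28.9 FPKM) lay above TAC1 (9.17 to 28.1 FPKM) in 5 of 6 libraries, the exception being VPA 393. TAC1 lay above RELN (9.14 to 11.8 FPKM) in 4 of 6 and RELN above CALB1 (4.73 to 10.9 FPKM) in 5 of 6, with overlapping ranges. The order by group mean was the same in VPA animals and in controls. These levels depend on the gene models behind the counts, whose lengths ran from 0.351 kb for SST to 11.5 kb for RELN. The SST model is short and may hold the coding part only, so that the place of SST in the order is uncertain. In reads, which are not scaled to length, CCK had 5012 to 5399 in VPA libraries and 5854 to 6046 in controls, and SST had 3028 to 3657 in VPA libraries and 3100 to 3156 in controls.

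**Figure D1:**
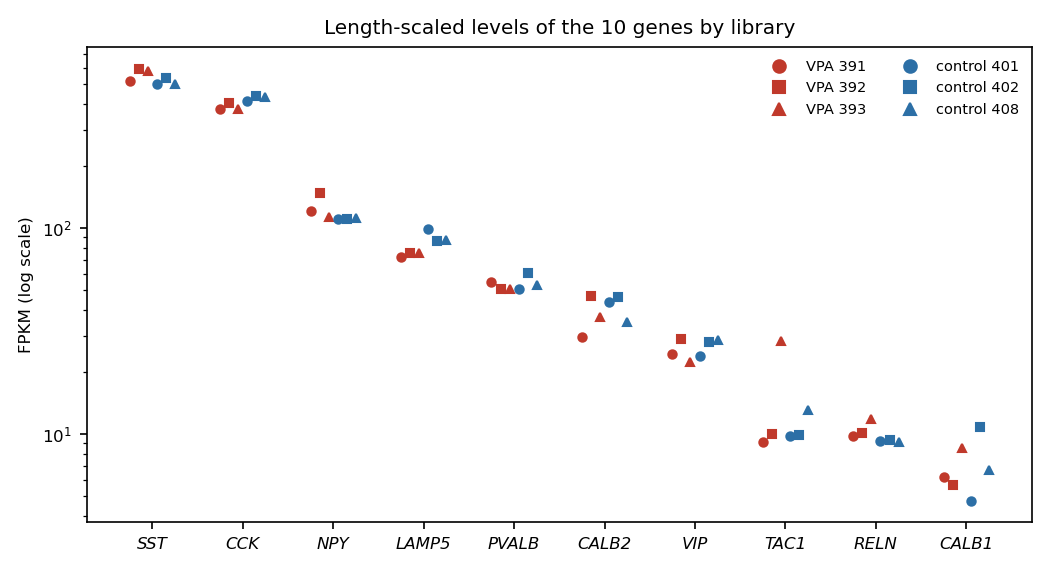
Level of each of the 10 genes in FPKM (vertical axis, log scale) in each library, with VPA libraries in red and control libraries in blue, ordered by the mean over the 6 libraries. SST and CCK lie above 378 FPKM in every library, and VPA 393 stands above the other libraries in TAC1, at 28.1 FPKM.

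The study asks whether cortical gene expression differs between pigs exposed to VPA before birth and controls. None of the 10 interneuron genes had an adjusted p under 0.05 (quasi-likelihood F test of edgeR, adjusted by Benjamini-Hochberg over all 14373 genes), where 0.362% of all tested genes did. At an unadjusted p under 0.05 there were 3, RELN higher and CCK and LAMP5 lower in VPA, against 16.1% of all tested genes, 8.69% higher and 7.45% lower. In 4 of the 10 the VPA and control libraries did not overlap: NPY and RELN were higher in every VPA library than in any control, and CCK and LAMP5 lower. The same held for 21.2% of all tested genes, 12.1% higher and 9.07% lower. DESeq2, which called 3.64% of the genes to which it gave an adjusted p, called 1 of the 10, LAMP5. With voom or on FPKM, limma called none of the 10. Among all genes limma called only 30 with voom and 2 on log2(FPKM + 1). The median log2 fold change of the 10 was -0.09, with 4 positive and 6 negative, and that of all tested genes was 0.0018. Without control 402 the median of the 10 was 0.068.

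**Figure D2:**
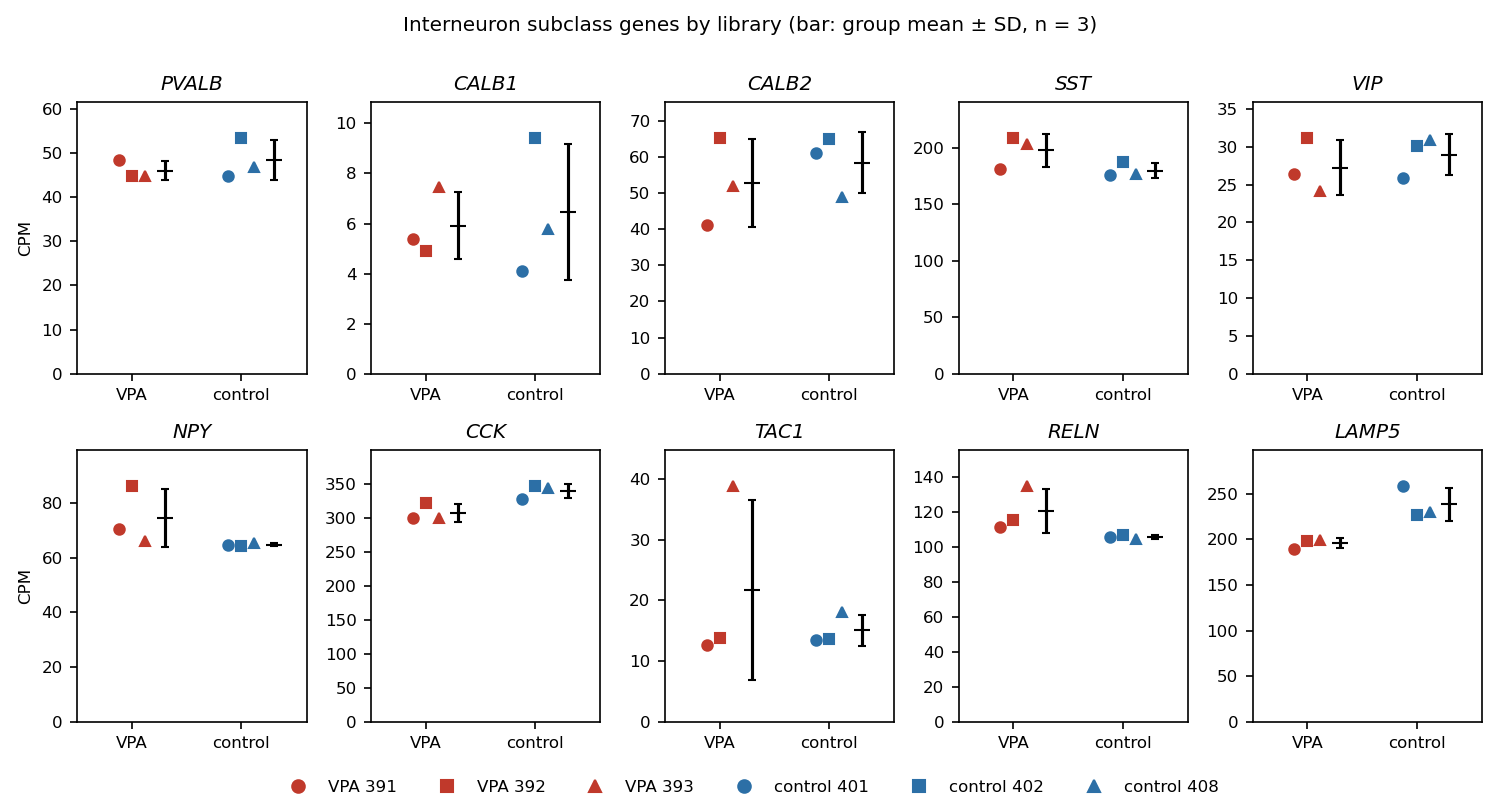
CPM of the 10 genes (vertical axes, each from 0) in the 3 VPA libraries (red, left) and the 3 control libraries (blue, right), with the group mean ± SD in black. LAMP5 and CCK lie lower and NPY and RELN higher in all 3 VPA libraries than in any control, and TAC1 is high in VPA 393 alone.

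LAMP5 came nearest to the threshold. It encodes a membrane protein that marks neurogliaform interneurons in rodents and humans, and in humans also some upper-layer glutamatergic neurons. It had 189, 199 and 199 CPM in VPA 391, 392 and 393, against 259, 226 and 230 CPM in controls 401, 402 and 408. Every VPA library lay below every control, and the VPA libraries lay closer together than the controls did. The means were 196 ± 5.62 CPM in VPA and 238 ± 17.8 CPM in controls (SD, n = 3 each), a log2 fold change of -0.30 ± 0.056 (SE), or a fold of 0.814 with a 95% interval of 0.747 to 0.887. The adjusted p was 0.056, and the gene ranked 74 of all tested genes by p. It passed the threshold in 3 of 17 alternative analyses: DESeq2 (adjusted p = 0.00069), edgeR without a filter on low counts (0.033) and edgeR with the EIF1AY level as a covariate (0.043). Over the 17 alternatives its log2 fold change ran from -0.34 to -0.24 and its adjusted p from 0.00069 to 0.18.

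RELN, also a neurogliaform marker, lay in the opposite direction to LAMP5. It encodes reelin, an extracellular glycoprotein that guides neuronal positioning in development and is made by interneurons in the adult cortex. It had 112, 116 and 135 CPM in VPA 391, 392 and 393, against 106, 107 and 105 CPM in controls 401, 402 and 408. The 3 controls lay within a few CPM of each other, and VPA 393 was well above the other VPA libraries. The log2 fold change was 0.18 ± 0.067 (SE, adjusted p = 0.22), with a 95% interval of 0.03 to 0.33, and it was 0.10 without VPA 393 (adjusted p = 0.42). Reelin is also the marker of Cajal-Retzius cells of the outermost cortical layer, whose other defining markers were at or near 0 here. Of these LHX5 had no read in any VPA library and at most 0.114 CPM in controls, TP73 had 0.359 to 0.614 CPM in VPA libraries and 0.178 to 0.626 CPM in controls, and LHX1 had 0.299 to 0.834 CPM in VPA libraries and 0.534 to 0.667 CPM in controls. The whole list of 6 Cajal-Retzius genes summed to 114 to 158 CPM in VPA libraries and 118 to 144 CPM in controls, nearly all of it from CALN1. CALN1 itself had 112, 115 and 156 CPM in VPA 391, 392 and 393, against 116 to 142 CPM in controls. The part of Cajal-Retzius cells in the RELN values was not tested. NDNF, a neurogliaform marker in mice, had 18.7 ± 2.02 CPM in VPA and 18.1 ± 0.798 CPM in controls (log2 fold change 0.04, adjusted p = 0.90).

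CCK encodes cholecystokinin, the peptide of one class of basket cells. Its level was 299.7, 322 and 300.2 CPM in VPA 391, 392 and 393, against 327, 347 and 344 CPM in controls 401, 402 and 408. The groups did not overlap, though VPA 392 and control 401 lay close together. The log2 fold change was -0.16 ± 0.051 (SE, adjusted p = 0.17), a fold of 0.897 with a 95% interval of 0.83 to 0.97. It was negative under each of the 17 alternatives, from -0.19 to -0.13, and passed the threshold in none. Glutamatergic markers had mostly negative fold changes alongside CCK and LAMP5. Their list of 19 genes also held RBFOX3, a marker of neurons in general. Of the 19 genes 14 had negative and 5 positive fold changes, with a median of -0.14, where 50.5% of all tested genes were positive. None passed the adjusted threshold in edgeR, where 8 were lower at an unadjusted p under 0.05, against 7.45% of all tested genes. DESeq2 called 4 of the 19, against 3.64% of the genes to which it gave an adjusted p. The summed level of the 19 genes was 6522 to 6681 CPM in VPA libraries and 6859 to 7093 CPM in controls. NEUROD6, a transcription factor gene of pyramidal neurons, had 35.1 ± 1.19 CPM in VPA and 44.0 ± 1.61 CPM in controls (log2 fold change -0.34, adjusted p = 0.065). It was called in edgeR without a filter on low counts (adjusted p = 0.0498) and in DESeq2 (adjusted p = 0.015), and its adjusted p over the 17 alternatives ran from 0.015 to 0.20. The part of glutamatergic neurons in the CCK and LAMP5 values was not tested.

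Somatostatin and neuropeptide Y, which many interneurons of the somatostatin class make together, both had positive fold changes. SST had 181, 209 and 203 CPM in VPA 391, 392 and 393, against 175, 187 and 176 CPM in controls 401, 402 and 408. VPA 391 fell inside the control range and the other VPA libraries lay above it. The log2 fold change was 0.13 ± 0.058 (SE, adjusted p = 0.32), with a 95% interval that just reached 0 (-0.0036 to 0.26). NPY had 70.6, 86.3 and 66.1 CPM in VPA libraries in the same order, against 64.8, 64.2 and 65.2 CPM in controls. Every VPA library was above every control, but VPA 393 by less than 1 CPM, and VPA 392 was far above the rest. Control values of NPY were so close that 98.8% of tested genes had a larger SD of log2 CPM among controls. The log2 fold change was 0.19 ± 0.091 (SE, adjusted p = 0.35) and 0.07 without VPA 392. Other genes of the somatostatin class overlapped between the groups. NOS1, the neuronal nitric oxide synthase gene, had 65.6 ± 1.89 CPM in VPA and 63.7 ± 4.28 CPM in controls, and CHODL, a marker of the long-range class in mice, had 8.59 ± 0.811 CPM in VPA and 8.56 ± 0.469 CPM in controls.

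Parvalbumin and VIP, the markers of the fast-spiking and of the disinhibitory classes, overlapped between the groups. PVALB, whose product buffers calcium in fast-spiking basket and chandelier cells, had 48.4, 44.7 and 44.8 CPM in VPA 391, 392 and 393, against 44.9, 53.5 and 46.8 CPM in controls 401, 402 and 408. Control 402 was the highest library and the other 5 lay close together. The 95% interval of its log2 fold change ran from -0.27 to 0.10, which covers folds of 0.828 to 1.07. VIP had 26.4, 31.2 and 24.1 CPM in the VPA libraries and 25.8, 30.1 and 30.8 CPM in controls, with a log2 fold change of -0.10 ± 0.11 (SE, adjusted p = 0.71) and a 95% interval of -0.35 to 0.15. Both groups thus held low and high VIP libraries, and VPA 392 was the highest of all 6. The potassium channel genes KCNC1 and KCNC2, which support fast spiking, overlapped between the groups. KCNC1 had 46.9 ± 1.35 CPM in VPA and 48.7 ± 5.76 CPM in controls, and KCNC2 had 136 ± 6.69 CPM in VPA and 135 ± 4.91 CPM in controls.

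Calbindin and calretinin, the other calcium-binding proteins, varied more among animals of a group than between the groups. CALB1, found in many somatostatin cells and in some pyramidal cells, had 5.38, 4.91 and 7.45 CPM in VPA 391, 392 and 393, against 4.11, 9.43 and 5.80 CPM in controls 401, 402 and 408. It rested on 74 to 159 reads a library. The exact Poisson 95% interval, which covers counting error only, was 3.23 to 5.16 CPM in control 401 and 8.02 to 11.02 CPM in control 402. The log2 fold change was -0.13 ± 0.28 (SE, adjusted p = 0.86). It was -0.38 without control 401 and turned to 0.24 without control 402. CALB2, the calretinin gene expressed in many VIP cells, had 41.3, 65.3 and 51.8 CPM in the VPA libraries and 61.2, 65.1 and 48.9 CPM in controls. The groups overlapped, though VPA 391 lay below every control. The 95% interval of the log2 fold change was -0.49 to 0.17 (adjusted p = 0.65).

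**Figure D3:**
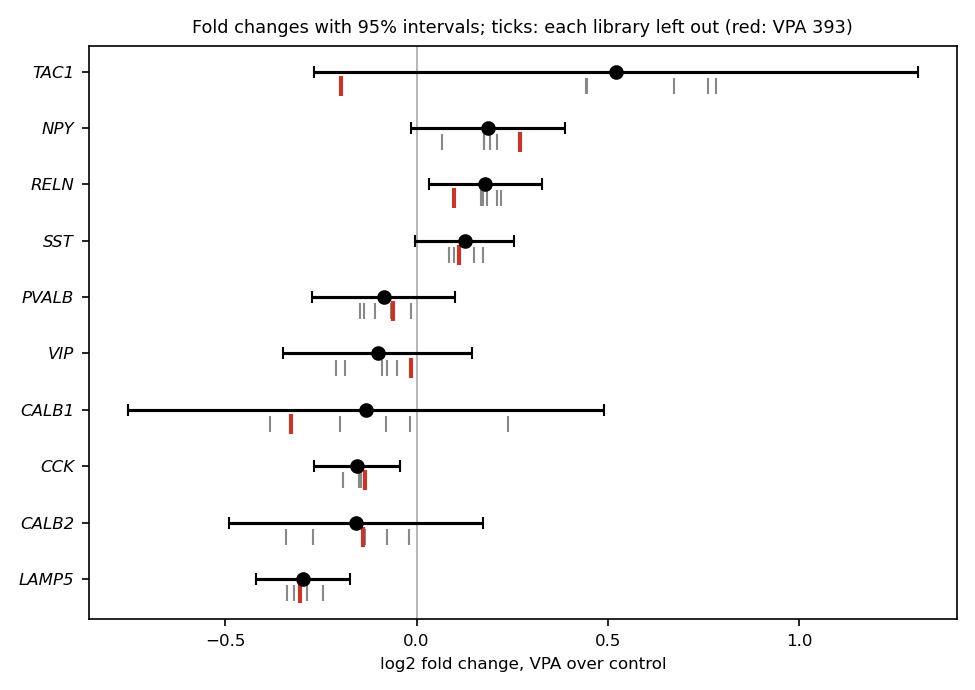
Log2 fold change of VPA over control (horizontal axis) for each of the 10 genes, as a black point with its 95% interval from the edgeR fit; ticks under each point are the values with each library left out in turn, in red for VPA 393. LAMP5, CCK and RELN have intervals that do not reach 0, and TAC1 moves from 0.52 to -0.20 without VPA 393.

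TAC1, the precursor of substance P and neurokinin A, was high in a single library. It had 12.7, 13.8 and 38.9 CPM in VPA 391, 392 and 393, against 13.6, 13.6 and 18.0 CPM in controls 401, 402 and 408. VPA 393 lay far above all other libraries, VPA 391 was the lowest of the 6, and VPA 392 lay within the control range. The fitted log2 fold change of 0.52 ± 0.36 (SE, adjusted p = 0.51) was -0.20 without VPA 393 (adjusted p = 0.58). Only 0.821% of tested genes had a larger SD of log2 CPM among the VPA libraries.

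The striatal projection neuron markers were high in the same library. The dopamine receptor gene DRD1, carried in the striatum by the substance P class, had 25.4, 19.7 and 45.5 CPM in VPA 391, 392 and 393, against 15.1 to 17.1 CPM in controls. DRD2, the receptor of the enkephalin class, had 1.85, 1.66 and 11.1 CPM in the VPA libraries, against 0.171 to 0.667 CPM in controls. PENK, the enkephalin precursor gene, which VIP cells also express in mice, had 27.6, 44.0 and 105.5 CPM in the VPA libraries, against 20.3 to 29.1 CPM in controls. All 3 were highest in VPA 393, but DRD1 and DRD2 were also above every control in VPA 391 and VPA 392, where TAC1 was not raised. The list had a median log2 fold change of 0.92 over 12 tested genes, 11 of them positive, and of 0.36 without VPA 393. Of all tested genes 50.5% were positive. None of the list passed the adjusted threshold in edgeR, where 8 were higher at an unadjusted p under 0.05, against 8.69% of all tested genes. DESeq2 called 2 of the list, against 3.64% of the genes to which it gave an adjusted p. The part of striatal tissue in the TAC1 value was not tested.

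**Figure D4:**
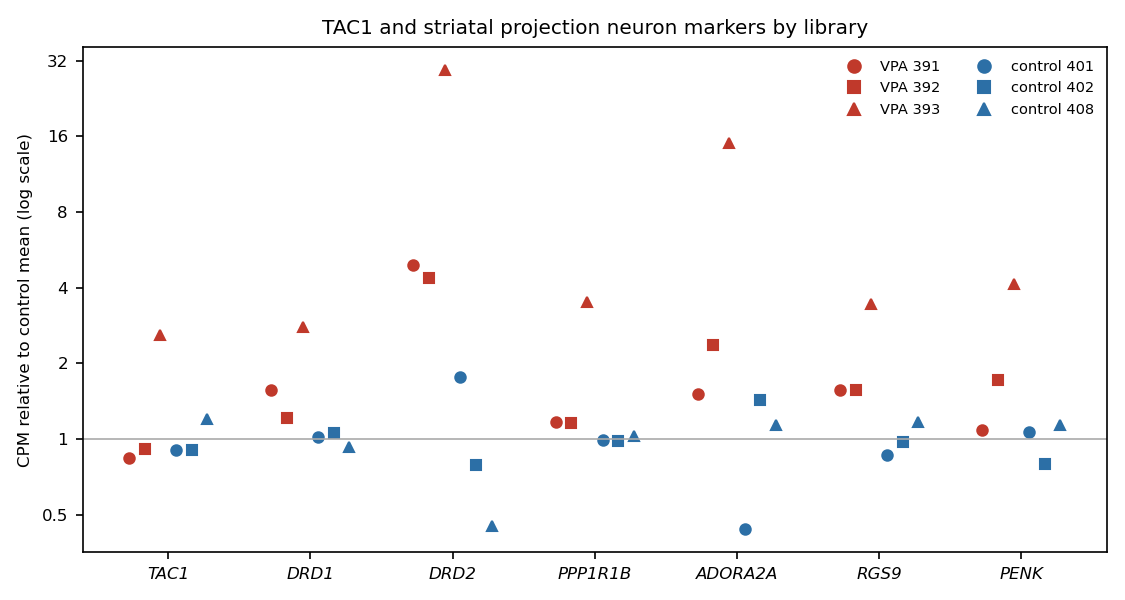
CPM of TAC1, of 5 defining markers of striatal projection neurons and of PENK in each library, divided by the control mean of the gene (vertical axis, log scale), with VPA libraries in red and controls in blue. VPA 393 is the highest library in all 7 genes, and in TAC1 the other VPA libraries lie among or below the controls.

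The 10 genes were also set against the genes that GABAergic neurons share, GAD1 and GAD2 for GABA synthesis and SLC32A1 for its vesicular packaging, which removes the scaling of the library. The summed level of these 3 genes was 483, 475 and 501 CPM in VPA 391, 392 and 393, against 441, 453 and 455 CPM in controls, with no overlap. Taken singly, only GAD1 did not overlap between the groups. GAD2 had 54.2 to 66.7 CPM in VPA libraries and 52.0 to 57.4 CPM in controls. SLC32A1 had 61.4 to 76.7 CPM in VPA libraries and 60.3 to 64.3 CPM in controls. The sum was highest in VPA 393, the library with the high striatal markers. The part of striatal tissue in the sum was not tested. LAMP5 had 39.2, 41.8 and 39.8 reads for every 100 reads of the 3 genes in the VPA libraries, against 58.7, 49.9 and 50.5 in controls. CCK had 62.1, 67.7 and 59.9 such reads in the VPA libraries, against 74.2, 76.6 and 75.6 in controls. PVALB, with a single control well above the rest, had 10.04, 9.40 and 8.95 in the VPA libraries, against 10.2, 11.8 and 10.3 in controls. In these 3 genes the groups did not overlap, and in each VPA was lower, with log2 differences of -0.39, -0.26 and -0.18. The same scale gave groups that did not overlap for 30.8% of all tested genes, 26.7% lower and 4.04% higher. For SST the difference on this scale was 0.02 and for NPY 0.08, with groups that overlapped. With 3 against 3 libraries the exact two-sided permutation test cannot give a p below 0.1, which was its value for these 3 genes, and 0.33 adjusted over the 10. Divided by GAD2 alone, PVALB overlapped between the groups and CCK and LAMP5 did not. In CPM, PVALB overlapped between the groups as well, with a log2 fold change of -0.09.

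**Figure D5:**
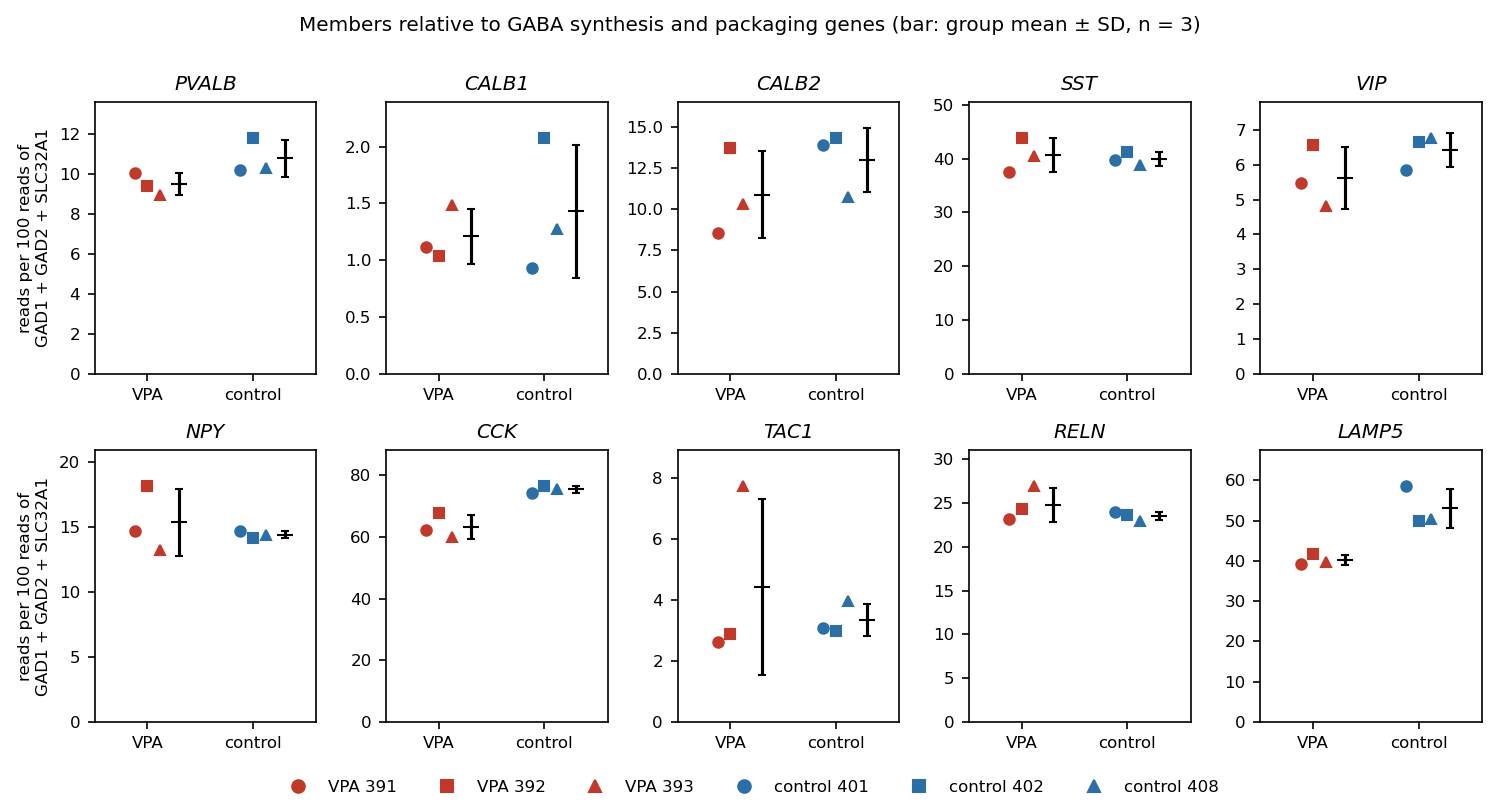
Reads of each of the 10 genes for every 100 reads of GAD1, GAD2 and SLC32A1 together (vertical axes, each from 0) in the 3 VPA libraries (red, left) and the 3 controls (blue, right), with the group mean ± SD in black. LAMP5, CCK and PVALB lie lower in all 3 VPA libraries than in any control, and SST and NPY overlap.

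Genes for the receptors of these peptides and of reelin were compared next, from a list of 20 of which 18 were measured and 16 tested. The list also held DAB1, which encodes an adaptor protein of reelin signalling and not a receptor. None passed the adjusted threshold in edgeR, with 6 positive and 10 negative fold changes and a median of -0.07. At an unadjusted p under 0.05, 1 was higher and 2 were lower, against 8.69% and 7.45% of all tested genes. The VPA and control libraries did not overlap in 1 higher and 2 lower genes, against 12.1% and 9.07% of all tested genes. The somatostatin receptor gene SSTR1 had the lowest p of the list. It had 56.0, 57.0 and 58.9 CPM in VPA 391, 392 and 393, against 70.7, 68.0 and 76.3 CPM in controls 401, 402 and 408, with no overlap (log2 fold change -0.34 ± 0.064 SE, adjusted p = 0.059). DESeq2 called it (adjusted p = 0.0040), as did edgeR without a filter (0.038), and its adjusted p over the 17 alternatives ran from 0.0040 to 0.19. SSTR2 and SSTR3 had smaller negative fold changes with overlapping groups. SSTR2 had 44.5 ± 4.50 CPM in VPA and 46.1 ± 2.07 CPM in controls, and SSTR3 had 34.8 ± 4.34 CPM in VPA and 36.0 ± 2.13 CPM in controls. SSTR5, at the low end of expression, had 1.41 ± 0.659 CPM in VPA and 0.673 ± 0.256 CPM in controls, with no overlap (adjusted p = 0.27). CCKBR, the cholecystokinin receptor gene of the brain, had 62.3, 76.1 and 73.4 CPM in VPA libraries and 82.5, 81.3 and 84.3 CPM in controls. It thus lay below every control in all 3 VPA animals, as CCK did (log2 fold change -0.24 ± 0.073 SE, adjusted p = 0.14). The reelin receptor gene VLDLR had 82.7 ± 8.28 CPM in VPA and 72.8 ± 4.29 CPM in controls (adjusted p = 0.32). LRP8, the other reelin receptor gene, lay in the opposite direction, with 83.5 ± 4.04 CPM in VPA and 88.1 ± 3.09 CPM in controls (adjusted p = 0.48). The NPY receptor gene NPY1R had 34.2 ± 2.19 CPM in VPA and 36.7 ± 3.48 CPM in controls (adjusted p = 0.58).

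A further 20 genes that accompany the subclass markers, of which 19 were tested, had a median log2 fold change of 0.02, with 11 positive and 8 negative. None was called in edgeR, DESeq2 or limma. In edgeR 1, PENK, had an unadjusted p under 0.05, against 16.1% of all tested genes. Among those with the lowest p after PENK were CHRNA7, a nicotinic receptor subunit gene (log2 fold change -0.11, adjusted p = 0.54), and EYA4 (0.30, adjusted p = 0.56). The cannabinoid receptor gene CNR1, strongly expressed in CCK basket cells, had 139 ± 3.39 CPM in VPA and 141 ± 13.0 CPM in controls, a log2 fold change of -0.04.

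Genes shared by GABAergic neurons or setting their lineage mostly had positive fold changes. Of 14 tested, 13 were positive, against 50.5% of all tested genes, and the median was 0.17. In VPA 393, the library with the high striatal markers, 7 of the 14 had their highest level, against 20.2% of all tested genes. Striatal projection neurons are GABAergic too. Without VPA 393, 10 of the 14 were positive with a median of 0.16, and the part of striatal tissue was not tested. None was called in edgeR, DESeq2 or limma. At an unadjusted p under 0.05 in edgeR 2 were higher, against 8.69% of all tested genes. SOX6, a transcription factor gene of parvalbumin and somatostatin cells, had 20.0 ± 0.557 CPM in VPA and 16.4 ± 0.992 CPM in controls (log2 fold change 0.27, adjusted p = 0.18). GAD1 stood at a log2 fold change of 0.10 (adjusted p = 0.33). DLX5, a homeobox gene of the interneuron lineage, stood at 0.61 (adjusted p = 0.34). LHX6, which specifies the parvalbumin and somatostatin classes, had 22.9 ± 1.07 CPM in VPA and 22.6 ± 2.89 CPM in controls, a log2 fold change of 0.01. SLC32A1 had 61.4, 62.2 and 76.7 CPM in VPA 391, 392 and 393 and 60.3 to 64.3 CPM in controls. Its log2 fold change of 0.09 was -0.014 without VPA 393.

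Glial marker lists had positive medians. Oligodendrocyte markers summed to 19397, 19411 and 17261 CPM in VPA libraries and 13233 to 17765 CPM in controls (13 of 15 positive, median log2 fold change 0.30). Astrocyte markers summed to 8344 to 9667 CPM in VPA libraries and 7683 to 8382 CPM in controls (8 of 9 positive, median 0.19). Microglial markers summed to 506 to 517 CPM in VPA libraries and 415 to 516 CPM in controls (7 of 10 positive, median 0.09). None of these genes was called in edgeR with all libraries, and 4 oligodendrocyte genes, CLDN11, CNP and MAG among them, were called without control 401, where the median of that list was 0.39. At an unadjusted p under 0.05 the higher genes were 10 of the oligodendrocyte, 6 of the astrocyte and 2 of the microglial list, against 8.69% of all tested genes. The oligodendrocyte list also held 1 lower gene, CNDP1 (log2 fold change -0.79, adjusted p = 0.20), against 7.45% of all tested genes. DESeq2 called 6 oligodendrocyte, 2 astrocyte and 0 microglial genes, against 3.64% of the genes to which it gave an adjusted p. The part of glial cells in the values of the interneuron genes was not tested.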

How the data were processed

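Prefrontal RNA of 3 VPA-exposed and 3 control pigs was extracted with TRIzol and made into libraries with a VAHTS Universal V6 kit, per the labels' protocols. The sources used here do not give the aligner, counting tool, strandedness, genome build or annotation. Per the file headers, the authors deposited raw counts and FPKM per gene for each library. All 97071 nonzero FPKM values the authors deposited could be rebuilt from the count, the file total and 1 fixed length per gene (relative tolerance 0.001). CPM used file totals. Groups came from the labels, which name separate animals but not litters, and animal numbers are not shared between groups. No 2 libraries agreed within sampling noise (chi-square per degree of freedom of 5.74 to 12.8 over 15 pairs). Gene names are those of the files, all 10 found as symbols in the RefSeq table of Sscrofa11.1; 24 names turned into dates stayed in the library sizes.

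Counts were fitted in R 4.3.3 with edgeR 4.0.16 on the whole table: filterByExpr, TMM factors (0.993 to 1.01) and the quasi-likelihood functions glmQLFit and glmQLFTest, without covariates. Called means a Benjamini-Hochberg adjusted p under 0.05. Standard errors came from the F statistic and 95% intervals from the t distribution. The fit had 4 residual degrees of freedom and a common biological coefficient of variation of 9.01%. Values are mean ± SD. The functions were tested on simulated data. Alternatives were scaling by RLE, upper quartile or library size alone, no filter or a mean of at least 1 CPM, DESeq2 1.42.0, limma 3.58.1 (its voom method, and its trend method on log2(FPKM + 1) or log2(FPKM + 0.1) for a mean FPKM of at least 0.5, and without that filter) and each library left out. EIF1AY as a covariate, and the alternatives for genes outside the 10 and for lists, were added after seeing the data. The genes and lists were chosen with earlier results of these data known. Named beside the 10 are up to 4 genes of each interneuron list with the lowest p and the defining cell type markers; some genes this selects are not reported here. NDNF, NOS1, CHODL, KCNC1, KCNC2, CNR1, LHX6, SSTR2, SSTR3, NPY1R, CALN1, CNDP1, CLDN11, CNP and MAG were named after their values were seen. So were LRP8, DAB1 and RBFOX3.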

Additional observations from a re-analysis of the deposited data

How the results depend on the processing

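No paired analysis was possible because the animal numbers of the labels are not shared between the groups. Of 170 values of the 10 genes under 17 alternatives, 165 kept their direction and side of the threshold. LAMP5 passed in 3, making 1 gene of the 10 called with DESeq2, with no filter on low counts and with EIF1AY as a covariate. TAC1 reversed to -0.20 without VPA 393 (range -0.20 to 0.78 over the left-out libraries) and CALB1 to 0.24 without control 402 (range -0.38 to 0.24); the cause was not tested. The median of the 10 ran from -0.14 to 0.068 with each library left out. The count of all called genes, 52 in edgeR, was 141 with no filter, 75 with EIF1AY as a covariate, 444 with DESeq2, 30 with limma-voom, 2 with limma-trend on FPKM at either pseudocount and 1 without the FPKM filter. It ran from 0 to 66 with each library left out. For genes set against GAD1, GAD2 and SLC32A1, 3 to 5 of the 10 did not overlap with each library left out, against 3 with all; the same held for 38.9% to 41.2% of all tested genes with a library left out and 30.8% with all. Of 389 values of 23 other named genes, 381 kept direction and side, 7 passed only in the alternative, and SLC32A1 reversed to -0.014 without VPA 393 (up to 0.14 without VPA 392). Of the 10 genes CALB1 had the fewest reads, 74 to 159 a library.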
